A study of Mus musculus with 2 samples.

Results

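The cells described here are barcodes of the adult mouse inner ear with RNA of cochlear supporting and sulcus epithelium. They were chosen by a rule on the readout itself: at least 300 genes, at most 20% mitochondrial UMIs (unique molecular identifiers, tags that each count 1 mRNA molecule captured), at least 3 of the 10 genes Ceacam16, Epyc, Kcnj16, Gpx2, Fbxo2, Zmynd12, Prss36, Otoa, P2rx2 and Slc26a4 with 1 or more UMIs, and no UMI of Otol1. Of 42625 barcodes that passed the filter, 1969 met the rule: 825 of 22672 in the AAV-Isl1 plus noise library and 1144 of 19953 in the noise-only library. Both groups came from CBA/CaJ mice of 4 to 6 weeks. AAV-Isl1 plus noise ears had received an adeno-associated virus that carries Isl1, the gene of a LIM homeodomain transcription factor of inner ear and neuron development, before noise of 105 dB at 1 to 20 kHz for 2 h. Noise-only ears were the opposite ears of the same animals, which heard the same noise without the virus. Tissue labelled sensory epithelium was taken 2 days after the noise, and ears of 5 mice were pooled into 1 library per group. The promoter that drives Isl1 in the vector is not given in the sources used here, nor is whether its RNA counts toward the annotated Isl1 gene. With 1 library per group there were no replicates and no test was made: every interval below is a 95% interval for counting error only and says nothing of the spread between mice, and every ratio is AAV-Isl1 plus noise over noise only.

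Supporting cells surround the hair cells of the organ of Corti, hold them mechanically and carry potassium away from them through gap junctions. The inner and outer sulcus border the organ on either side. Root cells send processes from the outer sulcus into the spiral ligament, where the anion exchanger pendrin, encoded by Slc26a4, is found. Interdental cells of the spiral limbus anchor the tectorial membrane, the gel that lies over the hair cells, through otoancorin, the product of Otoa. Ceacam16 encodes a glycoprotein of that membrane.

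The libraries held 24209 barcodes with 40268563 UMIs (AAV-Isl1 plus noise) and 21068 barcodes with 38330528 UMIs (noise only), far above the about 1600 cells loaded per library, so a barcode need not be a whole single cell. The marker-positive cells are called members below. They held 1572971 and 2534430 UMIs, with medians of 1408 and 1625 UMIs and of 831 and 909 genes per cell. Mitochondrial UMIs had medians of 4.88% and 5.10%. The libraries shared 145 barcodes, but no barcode was a member in both. RNA of other cells was present in many members. At least 3 genes of a Schwann or satellite glia list were seen in 34.4% of AAV-Isl1 plus noise members and in 28.7% of noise-only members. Neutrophil genes summed to 2396 CPM (UMIs per 1000000 UMIs of the members) against 11.4 CPM, with 94.6% of the AAV-Isl1 UMIs in 5 cells. Macrophage genes summed to 341 against 117 CPM and erythroid genes to 9100 against 4069 CPM. The part of this RNA in the results below was tested only by leaving out members that held it.

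The epithelial label held, while the defining genes of organ of Corti supporting cells were sparse. Epcam, an adhesion protein of epithelia, had 1181 CPM in AAV-Isl1 plus noise members and 1353 CPM in noise-only members. S100a1, a calcium-binding protein of supporting cells, had 6886 and 9691 CPM, and Gjb2, the gene of the gap junction protein connexin 26, had 286 and 422 CPM. Sox2, a transcription factor of the sensory epithelium, had 93.5 and 80.5 CPM. Against these, the pillar and Deiters cell genes were near 0: Fgfr3 had 3 UMIs in all AAV-Isl1 plus noise members and 16 in all noise-only members. Prox1 had 19 and 34 UMIs, Lfng 26 and 42, Emid1 30 and 42, and Hes5 0 and 2. The members are therefore called by their markers here, not by a position in the organ of Corti. The pendrin cell genes Foxi1 and Atp6v1b1, which accompany Slc26a4 in acid-base transporting cells of other inner ear regions, had 0 UMIs in both libraries. Counts of 0 in 825 and 1144 members allow up to 0.364% and 0.262% of members with a UMI.

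Among genes the rule did not name, Tdrd12, a Tudor domain gene known from germ cells, stood furthest above the other barcodes, at 68.6 times their level with AAV-Isl1 plus noise and 66.9 times with noise only. Of the 20 genes with the highest ratio to all other filtered barcodes in both libraries, 9 were rule markers. The others included Tmprss3, a transmembrane serine protease linked to deafness, at 87.7 CPM in AAV-Isl1 plus noise members and 98.2 CPM in noise-only members, which was 48.3 and 51.9 times the level of the other barcodes. The keratin genes Krt8 and Krt19 stood 17.7 and 22.03 times above the others with AAV-Isl1 and 24.8 and 31.1 times with noise only. Cldn4, a tight junction claudin, stood 20.1 and 35.2 times above, and Mia, a small secreted protein of cartilage, 20.9 and 16.5 times above. Tnnt2, known as the cardiac troponin T gene, was also among them, at 46.7 and 74.1 times. C2cd4b, at 46.4 and 111 times, Sfn, Ces1d and Gm16136 completed the set.

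Members took a smaller share of the AAV-Isl1 plus noise library. They were 3.64% of its filtered barcodes (3.40 to 3.89, exact Clopper-Pearson interval) and 5.73% (5.41 to 6.07) of the noise-only barcodes, a ratio of 0.635 (0.580 to 0.695). Thinning dropped the barcodes under 1000 UMIs, among them 29.5% of AAV-Isl1 plus noise and 24.6% of noise-only members, and cut the rest to 1000 UMIs. In this deeper set the shares were 3.11% of 12646 and 5.86% of 10869 barcodes, a ratio of 0.530. Shares depend on which other cells were captured, and a smaller share and less marker RNA per cell cannot be told apart with such a rule. Members of the AAV-Isl1 plus noise library also held fewer of the markers. Exactly 3 markers, the lowest number allowed, were seen in 357 of 825 AAV-Isl1 plus noise members (43.3%, 39.9 to 46.7) and in 388 of 1144 noise-only members (33.9%, 31.2 to 36.7). At least 6 were seen in 104 (12.6%, 10.4 to 15.1) and 271 (23.7%, 21.3 to 26.3). Just outside the rule, 902 AAV-Isl1 plus noise barcodes and 596 noise-only barcodes had 2 markers, and the ratio of the shares was 0.873 with these added and 0.545 with at least 4 markers required. Barcodes with 2 markers had 377 and 425 CPM of Epcam, against 1118 and 1175 CPM with 3 markers.

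**Figure D1:**
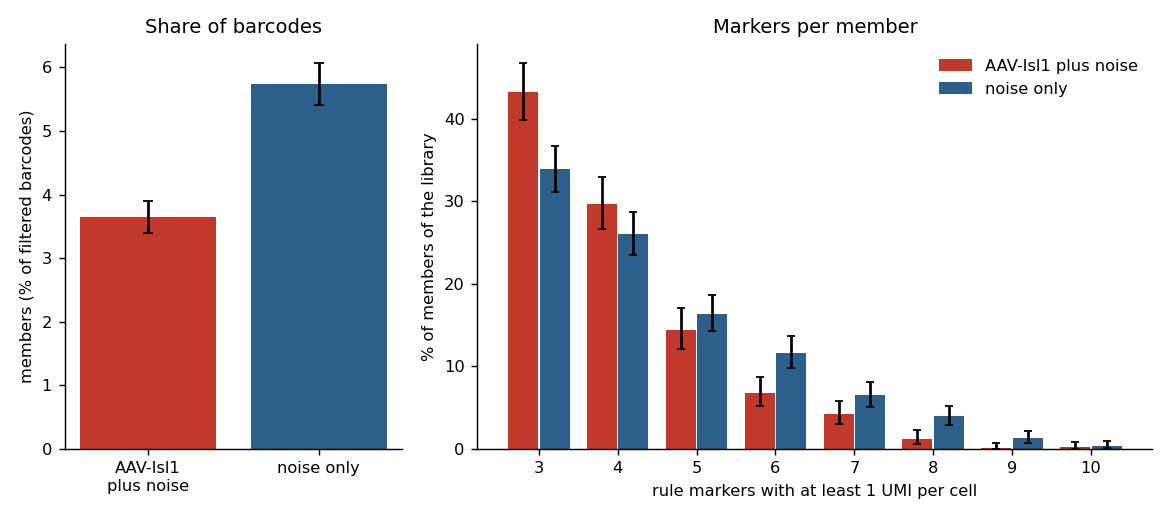
Left, members as a percentage of filtered barcodes in each library, and right, the percentage of members with each number of rule markers from 3 to 10. Bars are AAV-Isl1 plus noise (red) and noise only (blue) and whiskers are exact 95% binomial intervals: the AAV-Isl1 plus noise library has fewer members (3.64% against 5.73%) and more of them with exactly 3 markers (43.3% against 33.9%).

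The levels of the markers themselves, which the rule used, are a description only. Fbxo2, the gene of a ubiquitin ligase subunit rich in these cells, was seen in 98.7% of AAV-Isl1 plus noise members and 99.04% of noise-only members, but also in 25.3% and 21.9% of the other barcodes, at 5375 CPM in AAV-Isl1 plus noise members and 9175 CPM in noise-only members. Epyc, a small proteoglycan of supporting cells, had 808 and 1305 CPM. Ceacam16 had 1137 and 1679 CPM. Slc26a4 and Otoa lay level between the libraries, with 389 and 384 CPM for Slc26a4 and 180 and 171 CPM for Otoa. Of the 10 markers, 8 had a ratio below 1.

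The members were then split by the genes Slc26a4 (ENSMUSG00000020651; chr12:31519827-31559969, minus strand, GRCm38 with GENCODE vM21), Otoa (ENSMUSG00000034990; chr7:121081650-121163097, plus strand) and Ceacam16 (ENSMUSG00000014686; chr7:19852097-19861299, minus strand). Cells with UMIs of Slc26a4 alone numbered 121 of the AAV-Isl1 plus noise members (14.7%, 12.3 to 17.3) and 132 of the noise-only members (11.5%, 9.74 to 13.5). Cells with Otoa alone numbered 66 (8%, 6.24 to 10.1) and 40 (3.50%, 2.51 to 4.73). Cells with Ceacam16 alone numbered 280 (33.9%, 30.7 to 37.3) and 403 (35.2%, 32.5 to 38.1). Otoa-only cells were thus the subtype whose shares lay furthest apart, 2.29-fold (1.52 to 3.48), while the Ceacam16-only shares overlapped. With or without UMIs of the other genes, however, Otoa was seen in 24% of AAV-Isl1 plus noise members and 22.9% of noise-only members. Ceacam16 was seen in 50.9% and 58.9%. The Otoa-only ratio is therefore not a ratio of all members with Otoa. Between 2 and 3 of the genes were seen in 184 (22.3%) and 295 (25.8%) members and none of them in 174 (21.1%) and 274 (24.0%). Thinning to 1000 UMIs kept only the 582 and 863 members with at least that many. Among them the Otoa-only shares were 8.25% and 3.13% and the Slc26a4-only shares 14.1% and 9.39%. Since 1 UMI decides, a cell without a UMI of a gene may still express it. Otoa-only cells were also among the deepest, with medians of 2454 and 2204 UMIs, Slc26a4-only cells had 2072 and 2513, and Ceacam16-only cells 1146.5 and 1282.

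The genes that lead each subtype were chosen by these same counts and are a description. Slc26a4-only cells had their own set. Anxa1, a calcium-dependent phospholipid-binding protein known from outer sulcus root cells, stood at 2602 CPM in AAV-Isl1 plus noise and 3252 CPM in noise-only Slc26a4-only cells. In the other single-gene cells it had 54.8 and 27.4 CPM. Lrp2, the endocytic receptor megalin, had 341 and 668 CPM against 25.7 and 79.9 CPM in the others. Of the Lrp2 UMIs of all members, 37.6% and 76.5% lay in 19 and 63 cells described below, 10 and 29 of them Slc26a4-only. Enpep, the gene of aminopeptidase A, had 223 and 219 CPM against 3.42 and 17.9 CPM. Cidea, a lipid droplet protein, Sptssa, a subunit of the enzyme that starts sphingolipid synthesis, and the mannosidase gene Man1a completed the set with Wfdc18. The 9 listed outer sulcus and root cell genes together had 2992 and 3799 CPM in Slc26a4-only cells. They summed to 325 and 364 CPM in Otoa-only cells and to 777 and 789 CPM in Ceacam16-only cells. Anxa1 alone made up 2602 and 3252 CPM of the Slc26a4-only sums. The higher sums than in Ceacam16-only cells thus rest on Anxa1. Without it, the other listed genes together were lower in Slc26a4-only than in Ceacam16-only cells.

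Otoa-only cells were led by genes of the acellular membranes. Tecta (ENSMUSG00000037705; chr9:42329619-42399929, minus strand), which encodes the main non-collagen protein of the tectorial membrane, had 238 CPM in AAV-Isl1 plus noise and 288 CPM in noise-only Otoa-only cells, against 12.6 and 0.872 CPM in the other single-gene cells. Otog, the gene of otogelin, had 957 and 518 CPM against 107 and 90.7 CPM, and its paralog Otogl had 476 and 307 CPM against 58.6 and 65.4 CPM. Gpx3, a secreted glutathione peroxidase, had 1427 and 968 CPM against 181 and 169 CPM. Mme, the membrane peptidase neprilysin, Rnase1, a secreted ribonuclease, and the transcription factor gene Tcf4 followed. The 12 listed membrane genes summed to 2188 and 1591 CPM in Otoa-only cells, 466 and 411 CPM in Slc26a4-only cells and 345 and 395 CPM in Ceacam16-only cells.

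Supporting cell genes had their highest summed level in Ceacam16-only cells. The 15 listed genes summed to 11937 and 14890 CPM there, 9951 and 14013 CPM in cells with none of the 3 genes, 6053 and 7460 CPM in cells with 2 or 3 of them, 4902 and 5754 CPM in Slc26a4-only cells and 4189 and 5664 CPM in Otoa-only cells, with S100a1 alone at 10527 and 13040 CPM in Ceacam16-only cells. Rorb, an orphan nuclear receptor gene, had 104 and 128 CPM against 10.48 and 23.3 CPM in the other single-gene cells. Tcap, known as a muscle titin-binding protein, had 129 and 112 CPM against 14.7 and 7.76 CPM. Ttll3, a tubulin ligase gene, Basp1, a membrane protein of growing axons, and the unnamed model 6330411D24Rik were in the set. Its other members, C1qa of macrophages and Otos of fibrocytes, belong to other cell types: 1 noise-only cell held 23 of the 79 C1qa UMIs of all noise-only members.

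**Figure D2:**
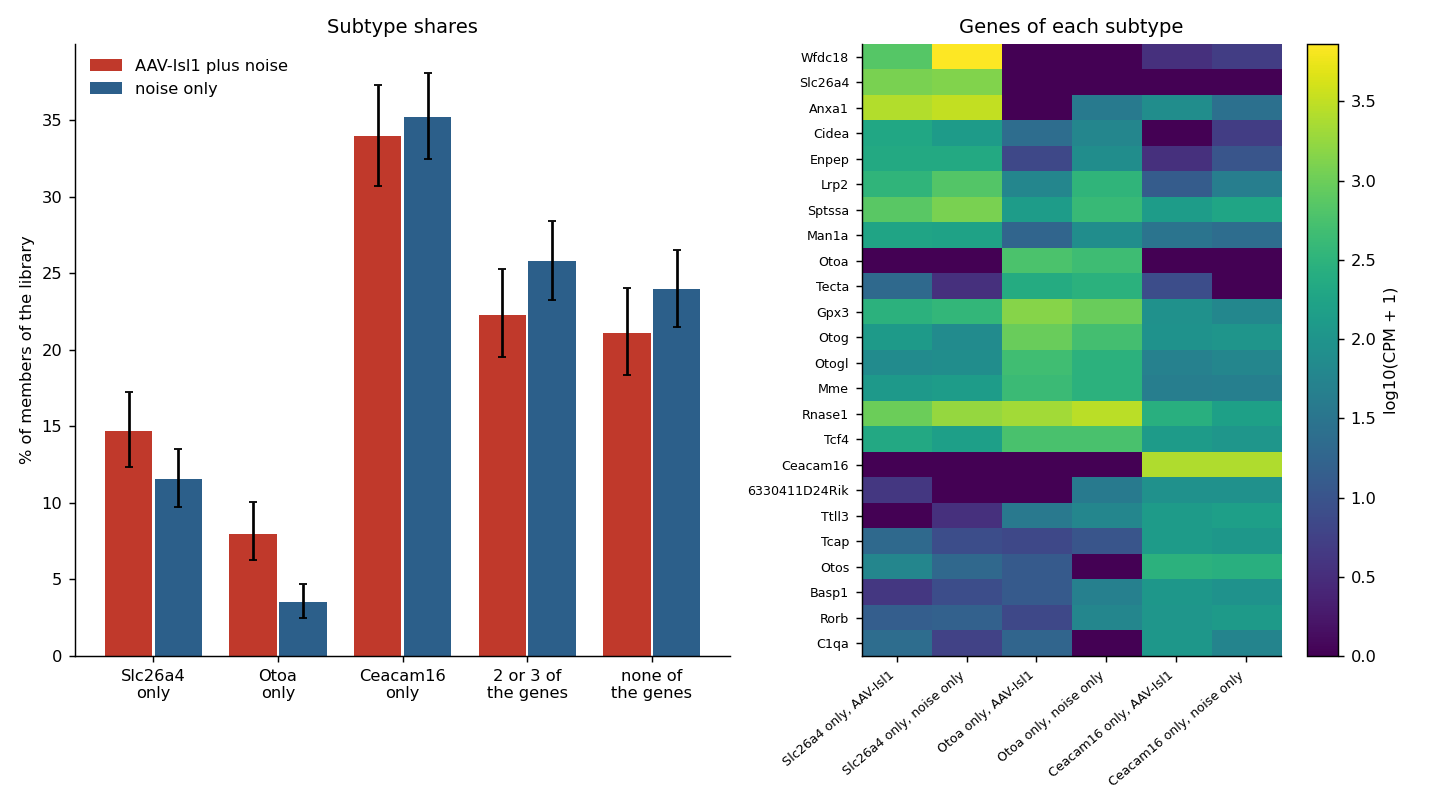
Left, percentage of members in each subtype with exact 95% binomial intervals, AAV-Isl1 plus noise in red and noise only in blue. Right, log10(CPM + 1) of the 8 genes with the highest ratio in each single-gene subtype (rows) in the 3 subtypes of both libraries (columns): each block of 8 is brightest in its own subtype in both libraries, and Otoa-only cells are 8% of AAV-Isl1 plus noise members against 3.50% of noise-only members.

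Isl1 (ENSMUSG00000042258; chr13:116298281-116309689, minus strand, GRCm38), the gene carried by the vector, was higher in AAV-Isl1 plus noise members. Its 291 UMIs made 185 CPM (164 to 208, exact Poisson interval), against 247 UMIs and 97.5 CPM (85.7 to 110) in noise-only members, a 1.90-fold ratio (1.60 to 2.26). Leaving out, per library, the 5 cells that held the most of these UMIs gave 1.82-fold. The ratio was not even over the members and was 1.44 with at least 4 markers. With exactly 3 markers, the lowest number allowed, Isl1 had 254 CPM with AAV-Isl1 plus noise and 103 CPM with noise only. In the same order it had 171 and 125 CPM with 4 markers and 92.6 and 91.7 CPM with 5. It had 143 and 62.0 CPM with 6, 101 and 94.8 CPM with 7, and 0 and 62.1 CPM with 8. Isl1 was seen in 152 AAV-Isl1 plus noise members (18.4%) and 161 noise-only members (14.1%). With members under 1000 UMIs dropped and the rest thinned to 1000 UMIs, these shares were 12.03% (9.497 to 15.0) and 8.11% (6.38 to 10.1). These intervals overlapped, while the interval of their ratio, 1.48 (1.05 to 2.10), lay just above 1. At least 5 Isl1 UMIs were found in 9 and 6 members. As a background, barcodes that were not members and had at least 30% hemoglobin UMIs (519 and 155, with medians of 2069 and 2419 UMIs) had 14.5 CPM (8.28 to 23.5) and 7.75 CPM (1.60 to 22.6). Isl1 was seen in 1.23% and 2.08% of them after thinning. All other filtered barcodes had 112 and 79.8 CPM, 1.40-fold (1.33 to 1.47).

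By subtype the Isl1 ratio ranged from 1.23 to 4.12 with all cells kept. Slc26a4-only cells had 134.5 CPM (41 UMIs) with AAV-Isl1 plus noise and 36.5 CPM (15 UMIs) with noise only, 3.69-fold (2.00 to 7.18). Of these UMIs 23 and 9 lay in 5 cells per library, and the ratio without those cells was 4.11. Otoa-only cells had 197 CPM (34 UMIs) and 47.9 CPM (5 UMIs), 4.12-fold (1.60 to 13.5), but 25 of the 34 UMIs and all 5 noise-only UMIs lay in 5 cells. Cells with 2 or 3 of the genes had 118 and 42.4 CPM, 2.79-fold (1.71 to 4.64), with 19 of 46 and 18 of 28 UMIs in 5 cells and 4.47-fold without those cells. Ceacam16-only cells had 146 CPM (111 to 187) and 118 CPM (94.8 to 146), 1.23-fold, with an interval from 0.870 to 1.73 that holds 1. Cells with none of the 3 genes had the highest level in both libraries, 372 CPM (306 to 449) and 180 CPM (148 to 216), 2.07-fold (1.58 to 2.72). In them 5 cells per library held 48 of 110 and 31 of 112 UMIs, and the ratio without those cells was 1.59. Cells with none of the 3 genes also had the highest sums of hair cell genes among the subtypes, 1496 and 1551 CPM. Their sums of Schwann or satellite glia genes were 4815 and 2462 CPM. The part of such RNA in their Isl1 level was not tested. Noise-only levels thus also differed by subtype, with Ceacam16-only cells above Slc26a4-only cells (36.5 CPM, 20.4 to 60.1). The interval of the Slc26a4-only ratio lay above that of the Ceacam16-only ratio, but both intervals take UMIs as independent. In Slc26a4-only cells Isl1 was seen in only 19 and 11 cells, with most of its UMIs in 5 per library. The intervals are too narrow for counts gathered in so few cells, so no difference between the subtypes can be read from them. Whether mice would show the same could not be tested.

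**Figure D3:**
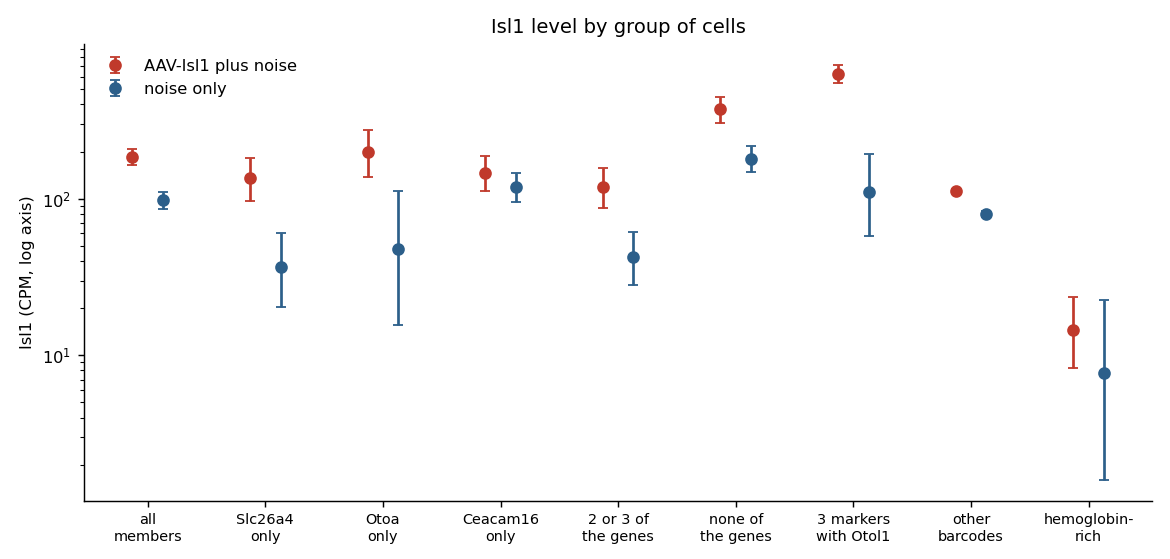
Isl1 level in CPM on a log axis with exact 95% Poisson intervals, AAV-Isl1 plus noise in red and noise only in blue, for all members, the 5 subtypes, barcodes with at least 3 markers and Otol1, all other filtered barcodes and barcodes rich in hemoglobin. Members stand at 185 against 97.5 CPM, Ceacam16-only cells overlap (146 against 118 CPM), and hemoglobin-rich barcodes stand lowest (14.5 against 7.75 CPM).

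Over all genes, 8691 had at least 50 UMIs in the members of both libraries together. Of these 468 (5.38%) were at least 1.5-fold higher and 283 (3.26%) at least 1.5-fold lower in AAV-Isl1 plus noise members, 52.3% had a ratio above 1, and the median log2 ratio was 0.01. These shares are the background for the counts of listed genes that follow. The 1.5-fold limit is a rule of size and not a test.

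Interferon response genes were higher as a list. Of 25 measured genes, 24 had a ratio above 1, 11 were at least 1.5-fold higher and 0 at least 1.5-fold lower, with a median log2 ratio of 0.53 in members and of -0.15 in the other barcodes. Ifit1, an RNA-binding inhibitor of viral translation, had 317 CPM in AAV-Isl1 plus noise members and 114 CPM in noise-only members, 2.79-fold (2.405 to 3.23), and 1.23-fold in the other barcodes. Its relative Ifit3 had 191 and 95.1 CPM, 2.01-fold (1.69 to 2.39). Ifi27l2a, the member with the most UMIs, had 3366 and 2108 CPM, 1.60-fold (1.54 to 1.66), against 1.00-fold in the other barcodes. Ifitm3, a restriction factor against virus entry, had 1075 and 657 CPM, 1.64-fold (1.53 to 1.75). After thinning, Ifit1 was seen in 116 of 582 AAV-Isl1 plus noise members (19.9%, 16.8 to 23.4) and in 68 of 863 noise-only members (7.88%, 6.17 to 9.88), and in 1.64% and 2.78% of hemoglobin-rich barcodes.

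MHC class I and antigen processing genes were higher too. All 15 measured genes had a ratio above 1 and 8 were at least 1.5-fold higher, with a median log2 ratio of 0.59, while that in the other barcodes was 0.20. Psmb8 and Psmb9, the inducible subunits of the immunoproteasome, had 68.7 and 55.9 CPM in AAV-Isl1 plus noise members against 19.7 and 17.8 CPM in noise-only members, 3.48-fold (2.47 to 4.97) for Psmb8 and 3.15-fold (2.18 to 4.62) for Psmb9. H2-K1 and H2-D1, class I heavy chains, had 437 and 579 CPM against 203 and 284 CPM, 2.15-fold (1.92 to 2.41) and 2.04-fold (1.85 to 2.25). B2m, their light chain, had 543 and 295 CPM, 1.84-fold (1.67 to 2.04). Hemoglobin-rich barcodes had 136 against 108 CPM of H2-K1 and 55.2 against 25.8 CPM of Psmb8, and the Psmb8 level of members was 68.7 against 19.7 CPM. With members left out that held any neutrophil or macrophage UMI (631 and 1071 cells remained), the list medians were 0.57 for interferon response genes and 0.72 for MHC class I genes.

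The size of these ratios differed by subtype. In Otoa-only cells Ifit1 had 557 CPM (96 UMIs) with AAV-Isl1 plus noise and 57.5 CPM (6 UMIs) with noise only, 9.69-fold (4.29 to 27.1). In Slc26a4-only cells it had 279 and 65.6 CPM, 4.25-fold (2.73 to 6.82). In Ceacam16-only cells it had 187 and 139 CPM, 1.35-fold (0.988 to 1.83). Ifit3 followed the same order, with 5.57-fold (2.22 to 18.0) in Otoa-only, 2.47-fold (1.56 to 4.00) in Slc26a4-only and 0.771-fold (0.538 to 1.09) in Ceacam16-only cells. H2-K1 had 644 and 163 CPM in Otoa-only cells, 3.95-fold (2.36 to 7.03), 1.81-fold (1.42 to 2.31) in Slc26a4-only and 1.73-fold (1.36 to 2.21) in Ceacam16-only cells. The interferon list had medians of 1.14 (8 measured genes) in Otoa-only, 0.66 (16) in Slc26a4-only and 0.42 (18) in Ceacam16-only cells, and the MHC class I list 1.67 (4), 0.53 (8) and 0.48 (8). Cells with 2 or 3 of the genes had medians of 0.49 (17 genes) for the interferon list and 0.74 (8) for the MHC class I list, and cells with none of them 0.63 (16) and 0.37 (8). List genes were measured by their UMIs within each subtype, so these medians cover different genes. Otoa-only cells held the fewest UMIs, 172341 with AAV-Isl1 plus noise and 104341 with noise only. A list gene high in the AAV-Isl1 plus noise library passed there more easily, so the order of the medians may rest in part on this. With each median taken over its own measured genes, cells with none of the 3 subtype genes had the highest Isl1 level and the lowest MHC class I median. Otoa-only cells had the highest Isl1 ratio and the highest median of both lists, though from the fewest measured genes. A link between Isl1 and these lists was not tested. Summed over all listed genes, interferon response genes had 7100 and 5355 CPM in Slc26a4-only cells, 9005 and 3834 CPM in Otoa-only cells and 8416 and 5540 CPM in Ceacam16-only cells, so the order of the medians was not that of the sums.

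**Figure D4:**
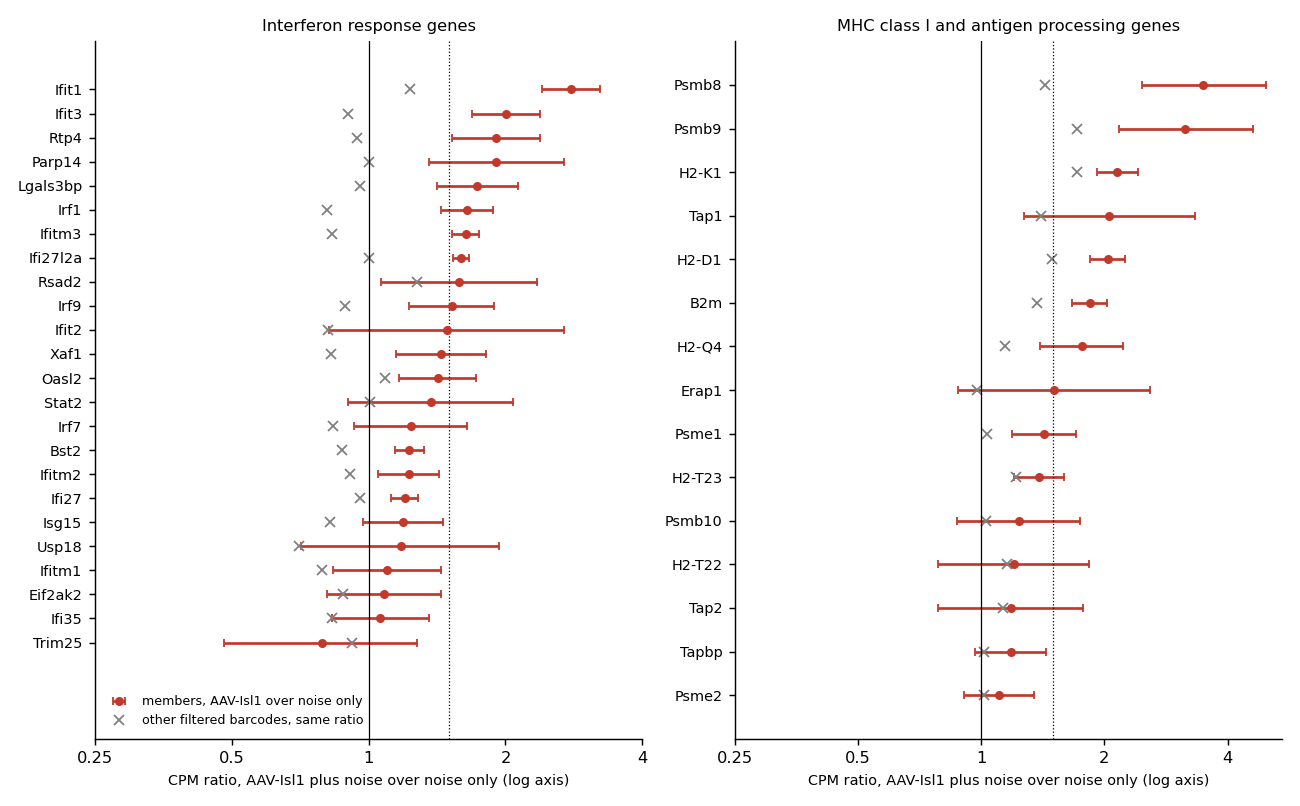
CPM ratio of AAV-Isl1 plus noise over noise only (log axis) for measured interferon response genes (left, 24 of 25 drawn) and each measured MHC class I and antigen processing gene (right). Red points are members with exact 95% intervals, grey crosses the same ratio in the other filtered barcodes, the solid line marks 1 and the dotted line 1.5: in members, all 15 genes on the right lie above 1, and Trim25 is the 1 gene on the left below it.

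The promoters of these genes are shown because these genes were higher together and because interferon acts through a short repeated element, the interferon-stimulated response element, that transcription factors downstream of the receptor bind. Of the 19 interferon or MHC class I genes at least 1.5-fold higher, 15 had a promoter in the RefSeq table (GRCm38.p6, 250 bases before to 50 after the start). The pattern searched was GAAA, any 2 bases and GAAA again, on both strands, so that it may also be read as TTTC, any 2 bases and TTTC. It was found in 6 of the 15. Whatever their ratio, 14 of the 33 matched genes of the 40 measured held it, as did 1079 of 27025 genes of the table (3.99%). A match is a run of letters and not a measured site. In the sequences below, written 5′ to 3′ along the gene's strand, capitals mark the pattern.
Ifit1: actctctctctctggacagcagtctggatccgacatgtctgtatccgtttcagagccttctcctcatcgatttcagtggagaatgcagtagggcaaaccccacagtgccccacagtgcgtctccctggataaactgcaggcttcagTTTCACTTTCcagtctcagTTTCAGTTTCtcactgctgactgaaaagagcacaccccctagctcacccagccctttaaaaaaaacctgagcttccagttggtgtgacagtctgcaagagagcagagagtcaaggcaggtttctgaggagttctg
Ifit3: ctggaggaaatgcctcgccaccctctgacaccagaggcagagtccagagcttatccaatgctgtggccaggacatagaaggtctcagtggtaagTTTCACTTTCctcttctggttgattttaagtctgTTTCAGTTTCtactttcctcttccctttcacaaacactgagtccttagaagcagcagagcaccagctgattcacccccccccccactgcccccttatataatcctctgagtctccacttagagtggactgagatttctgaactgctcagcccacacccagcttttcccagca
B2m: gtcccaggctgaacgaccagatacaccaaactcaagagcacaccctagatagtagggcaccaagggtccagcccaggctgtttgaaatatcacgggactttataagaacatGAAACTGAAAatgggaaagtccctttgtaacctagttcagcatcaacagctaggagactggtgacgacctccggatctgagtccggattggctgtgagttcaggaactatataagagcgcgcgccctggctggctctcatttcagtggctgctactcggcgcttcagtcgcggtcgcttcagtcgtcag
Psmb9: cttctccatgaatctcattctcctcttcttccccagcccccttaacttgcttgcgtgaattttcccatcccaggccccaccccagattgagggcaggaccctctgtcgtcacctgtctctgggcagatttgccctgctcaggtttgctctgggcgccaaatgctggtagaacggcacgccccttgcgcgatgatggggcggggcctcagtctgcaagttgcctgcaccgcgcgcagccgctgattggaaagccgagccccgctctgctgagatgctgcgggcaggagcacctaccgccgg
The Ifit1 promoter (chr19:34640639-34640938, plus strand) and the Ifit3 promoter (chr19:34583279-34583578, plus strand) hold the pattern 2 times each, the first copy 104 and 156 bases before the start. The B2m promoter (chr2:122147437-122147736, plus strand) holds it 1 time, 139 bases before the start. The Psmb9 promoter (chr17:34187281-34187580, minus strand) holds 0 copies in this window and overlaps the promoter of Tap1, the peptide transporter gene that starts in the other direction. Psmb8, H2-K1 and H2-D1 held 0 copies as well.

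The 12 genes with the highest ratios, among 147 that met the rule for named genes, included MHC class II genes, which class II presenting cells use to show peptides to helper T cells. H2-Ab1 had 76.9 CPM in AAV-Isl1 plus noise members and 5.13 CPM in noise-only members, 15.0-fold (8.45 to 29.0), H2-Aa had 75.02 and 6.31 CPM, 11.9-fold (7.02 to 21.5), and Cd74 had 207 and 29.2 CPM, 7.08-fold (5.48 to 9.24). Hemoglobin-rich barcodes had 61.6 and 2.58 CPM of H2-Ab1, 75.1 and 5.17 CPM of H2-Aa and 154 and 7.75 CPM of Cd74, so the H2-Aa level of members did not exceed theirs in the AAV-Isl1 plus noise library. All other filtered barcodes had 123 and 28.6 CPM of H2-Ab1. The part of free RNA in these ratios was not tested. At least 2 of the 3 genes were seen in 54 AAV-Isl1 plus noise members (6.55%) and 8 noise-only members (0.699%), of which 16 and 1 also held a macrophage UMI. The 16 are 29.6% of the 54, against 9.21% of all AAV-Isl1 plus noise members with a macrophage UMI. B or plasma cell genes summed to 36.2 and 2.37 CPM in members, with 86.0% of the AAV-Isl1 UMIs in 5 cells. In the other barcodes they summed to 268 and 17.2 CPM. Which cells the class II RNA came from was not tested. Cxcl10, a chemokine that interferon induces, had 51.5 and 9.86 CPM, 5.22-fold (3.30 to 8.53), against 37.1 and 15.5 CPM in hemoglobin-rich barcodes. It was seen in only 19 and 11 members, and 5 cells per library held 44 of its 81 and 19 of its 25 UMIs.

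Other high ratios belonged to secreted and surface proteins. Ecrg4, the gene of a secreted peptide precursor, had 483 CPM in AAV-Isl1 plus noise members and 144 CPM in noise-only members, 3.35-fold (2.95 to 3.81). Per library, 5 cells held 335 of its 759 and 180 of its 365 UMIs, and the ratio without them was 3.71. Ecrg4 was seen in 10.4% and 8.83% of members. After thinning it was seen in 9.11% (6.90 to 11.7) and 6.49% (4.94 to 8.34). These intervals overlapped, and the interval of their ratio, 1.40 (0.945 to 2.08), holds 1. It was 2.79-fold in Slc26a4-only, 1.20-fold in Ceacam16-only and 0.908-fold in Otoa-only cells, the last from 9 and 6 UMIs. Il33, an alarmin cytokine of epithelia, had 97.3 and 31.2 CPM, 3.12-fold (2.36 to 4.15), against 5.43 and 20.7 CPM in hemoglobin-rich barcodes. Thbs1, the gene of thrombospondin 1, had 66.1 and 15.8 CPM, 4.19-fold (2.88 to 6.19). Ly6a, an interferon-inducible surface antigen, had 114 and 26.0 CPM, 4.37-fold (3.28 to 5.89), against 50.7 and 49.1 CPM in hemoglobin-rich barcodes. Gpc3, a glypican, had 82.6 and 29.2 CPM, 2.83-fold (2.11 to 3.82). Its level was highest in Otoa-only cells, with 464 CPM in the AAV-Isl1 plus noise library and 201 CPM in the noise-only library, 2.31-fold (1.41 to 3.93).

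Of 10 measured tectorial and otolithic membrane genes, 8 had a ratio above 1, 3 were at least 1.5-fold higher and 0 at least 1.5-fold lower, with a median log2 ratio of 0.24 in members and of 0.58 in the other barcodes. Tecta had 47.0 and 16.2 CPM, 2.91-fold (1.96 to 4.37), but within Otoa-only cells it had 238 and 288 CPM, 0.827-fold (0.504 to 1.37). With both libraries given the same subtype makeup its ratio was 2.10. Otog had 262 and 123 CPM in members, 2.13-fold (1.83 to 2.47), 1.85-fold (1.35 to 2.56) within Otoa-only cells and 1.67-fold with the same makeup. Tectb, the gene of beta-tectorin, had 57 and 38 UMIs, 2.42-fold (1.58 to 3.74), with 23 of the 57 in 1 cell. The simple-epithelium keratins Krt8 and Krt18 were higher as well. Krt8 had 525 and 320 CPM, 1.64-fold (1.49 to 1.81), and Krt18 had 477 and 278 CPM, 1.72-fold (1.55 to 1.91). In Ceacam16-only cells Krt18 had 82.5 and 15.0 CPM, 5.51-fold (2.73 to 12.1), while in Slc26a4-only cells it had 643 and 649 CPM, 0.991-fold (0.820 to 1.20).

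Of 14 measured organ of Corti supporting cell genes, 9 had a ratio below 1, 0 were at least 1.5-fold higher and 4 at least 1.5-fold lower, with a median log2 ratio of -0.16 in members and of -0.05 in the other barcodes. Hes1, the Notch pathway repressor of transcription, had 137 CPM in AAV-Isl1 plus noise members and 242 CPM in noise-only members, 0.567-fold (0.483 to 0.663), and was also lower in the other barcodes at 0.63-fold. After thinning it was seen in 10.3% (7.96 to 13.1) and 16.1% (13.7 to 18.7) of members. Its ratio was 0.690 (0.528 to 0.894) in Ceacam16-only, 0.595 (0.360 to 0.959) in Slc26a4-only and 0.197 (0.0966 to 0.376) in Otoa-only cells, the last from 13 and 40 UMIs. S100a1 was 0.711-fold (0.695 to 0.727) in members, between 0.690 and 0.822 in each of the 5 subtypes, and 1.09-fold in the other barcodes. Rorb had 38.1 and 65.9 CPM, 0.579-fold (0.424 to 0.782), the Notch ligand Jag1 12.7 and 20.5 CPM, 0.620-fold with an interval from 0.350 to 1.06, and the protease gene Bace2 25.4 and 41.0 CPM, 0.620-fold (0.419 to 0.900).

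The connexin genes Gjb2 and Gjb6, whose products form the gap junctions for potassium recycling, had 286 and 223 CPM in AAV-Isl1 plus noise members against 422 and 327 CPM in noise-only members, 0.678-fold (0.606 to 0.758) and 0.683-fold (0.601 to 0.775). Of the 12 measured genes of that list, 7 had a ratio below 1 and 0 were past 1.5-fold in either direction, with a median log2 ratio of -0.11. Kcnj10, a potassium channel, had 139 and 158 CPM, 0.878-fold (0.741 to 1.04), and Slc12a2, a sodium, potassium and chloride cotransporter, 248 and 204 CPM, 1.22-fold (1.06 to 1.39). Of 7 measured outer sulcus and root cell genes, 0 were at least 1.5-fold higher and 2 at least 1.5-fold lower: Bmp4, a growth factor of the outer sulcus, with 49.0 and 76.5 CPM, 0.640-fold (0.485 to 0.837), and the adhesion receptor Cd44 with 40.7 and 61.9 CPM, 0.657-fold (0.483 to 0.884). Anxa1 had 632 and 694 CPM, 0.911-fold (0.842 to 0.985). Gata3, a transcription factor of the auditory epithelium in the same list, had 169 and 245 CPM, 0.691-fold (0.597 to 0.799), and 1.20-fold in the other barcodes.

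The 12 genes with the lowest ratios came from 108 that met the rule, and several rested on few cells. Wfdc18 (ENSMUSG00000000983; chr11:83709015-83711348, plus strand), a secreted WAP domain protein, had 137 CPM in AAV-Isl1 plus noise members and 1188 CPM in noise-only members, 0.116-fold (0.100 to 0.133). It was seen in 1.33% and 1.75% of members, and 1 noise-only cell held 1169 of its 3010 UMIs. Crhbp, the binding protein of corticotropin-releasing hormone, had 121 and 481 CPM, 0.253-fold (0.216 to 0.295). Vmo1, a protein known from the egg vitelline membrane, had 345 and 832 CPM, 0.414-fold (0.376 to 0.456). The anion transporter Slc26a7 had 36.2 and 87.6 CPM, 0.414-fold (0.304 to 0.556), the Wnt pathway modulator Dkk2 15.3 and 55.2 CPM, 0.276-fold (0.171 to 0.428), and Lrp2 94.7 and 202 CPM, 0.470-fold (0.389 to 0.565).

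These 5 genes shared a part of their cells. At least 3 of Vmo1, Crhbp, Slc26a7, Dkk2 and Lrp2 were seen in 19 AAV-Isl1 plus noise members (2.30%, 1.39 to 3.57) and 63 noise-only members (5.51%, 4.26 to 6.99), a set defined after the values were seen. These cells held 95.8% and 98.0% of the Crhbp UMIs and 80.4% and 91.2% of the Vmo1 UMIs of the members. The shares were 78.9% and 97.3% for Slc26a7, 66.7% and 97.1% for Dkk2, and 37.6% and 76.5% for Lrp2. Since the cells were chosen by these same genes, high shares are in part built in. Without these cells Vmo1 had 70.1 and 80.9 CPM and Lrp2 61.5 and 52.5 CPM. With barcodes under 1000 UMIs dropped and the rest thinned to 1000 UMIs before the rule, the ratios of Vmo1 and Slc26a7 were 1.08 and 1.16. Of these cells 10 and 29 were Slc26a4-only and 3 and 9 Otoa-only.

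Of the 12 genes with the lowest ratios, Lum and Smagp were seen in the most members. Lum, a small proteoglycan of connective tissue, had 97.3 CPM in AAV-Isl1 plus noise members and 220 CPM in noise-only members, 0.443-fold (0.368 to 0.530), was seen in 13.5% and 22.99% of them, and had 33.5 and 15.5 CPM in hemoglobin-rich barcodes. Smagp, a small membrane protein of epithelia, had 45.8 and 95.9 CPM, 0.477-fold (0.362 to 0.623). Cldn14, a tight junction claudin linked to deafness, had 21.0 and 45.8 CPM, 0.458-fold (0.301 to 0.680). Apoc3, known as a liver apolipoprotein, had 16.5 and 73.0 CPM, 0.226-fold (0.144 to 0.343), and 0.217 and 0.641 CPM in the other barcodes. It was seen in only 2.18% and 5.42% of members, and 5 cells held 13 of its 26 AAV-Isl1 plus noise UMIs. Rubie, a long noncoding RNA named after its place upstream of Bmp4, had 24.2 and 56.0 CPM, 0.431-fold (0.293 to 0.621), and the growth factor Kitl had 25.4 and 48.9 CPM, 0.520-fold (0.354 to 0.748). Hemoglobin-rich barcodes held Kitl at 26.3 and 46.5 CPM, much the same levels, and its ratio was 0.942 without members with 3 genes of another cell type.

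**Figure D5:**
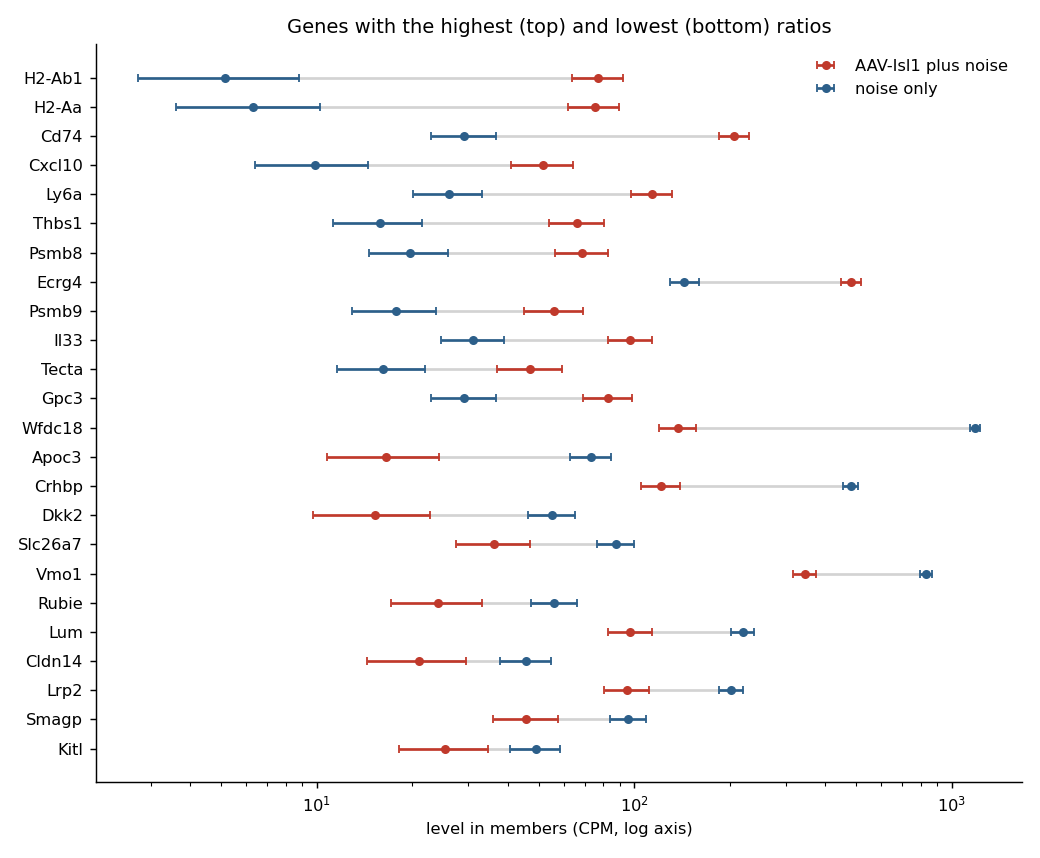
Level in members (CPM, log axis) with exact 95% Poisson intervals of the 12 genes with the highest ratios (top, from H2-Ab1) and the 12 with the lowest (bottom, from Wfdc18), AAV-Isl1 plus noise in red and noise only in blue. Red lies right of blue in the upper 12 and left of it in the lower 12, by the choice of the genes, with ratios from 15.0 for H2-Ab1 to 0.116 for Wfdc18.

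Lists of cell stress and metabolism lay near the median of all genes. The median log2 ratio was 0.06 for 16 heat shock and chaperone genes, 0.06 for 25 antioxidant and glutathione genes, 0.07 for 17 unfolded protein response genes, 0.06 for 13 p53 and apoptosis genes, 0.04 for 11 anti-apoptotic genes and -0.02 for 27 oxidative phosphorylation genes. The chaperone Hsp90ab1 had 1462 CPM in AAV-Isl1 plus noise members and 1398 CPM in noise-only members, 1.05-fold (0.992 to 1.10), and Hspa1a had 639 and 666 CPM, 0.959-fold (0.886 to 1.04). Past 1.5-fold in these lists were Gpx3 at 1.67 (1.48 to 1.90), Gadd45a, a DNA damage response gene, at 1.59 (1.16 to 2.18), and Gstm2, a glutathione transferase, at 0.632 (0.432 to 0.912). Notch pathway genes had a median of -0.04 with 0 of 10 at least 1.5-fold higher and 3 at least 1.5-fold lower, glucocorticoid and circadian genes -0.13 with 0 of 14 past 1.5-fold, and cell cycle genes -0.12 from 7 measured genes. LIM homeodomain and partner genes had -0.04 over 10 genes. Besides Isl1, Lmx1a was 1.55-fold (1.10 to 2.17) and Lmo2 1.5-fold with an interval from 0.855 to 2.63.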

How the data were processed

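Single cells were profiled with the 10x Genomics 3' kit. The authors deposited unnormalized UMI counts. STAR, Seurat 3.2.2, mm10 (GRCm38) and Cell Ranger 5.0, which the matrix header gives as 5.0.1, are named in the submitters' processing notes. The lowest barcode held 500 UMIs. Each library's 22672 (AAV-Isl1 plus noise) and 19953 (noise only) filtered barcodes had medians of 1102 and 1094 UMIs.

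The counts of members were summed per library and divided by their total (CPM), with exact Poisson intervals. Ratios have conditional binomial and shares Clopper-Pearson intervals, all at 95%, and UMIs and cells were taken as independent. Counts of 0 were set to 3 in ratios. Genes with at least 50 UMIs were measured, and 24 gene lists besides the markers were described by counts and medians. The members and lists were chosen with earlier results of these data known. Named genes were Isl1, and the 12 highest and 12 lowest ratios among genes with at least 100 UMIs, past 1.5-fold with and without the 5 cells that held most of the UMIs, and in the library where they were higher at a CPM of at least 0.5 times that of the other barcodes. Left out were rule markers, Otol1, unnamed models, and genes of hemoglobins, ribosomal proteins, mitochondria, T cell receptors and immunoglobulins. Members were described by the 20 genes with the highest ratio to other barcodes and subtypes by the 8 with the highest ratio to the other single-gene subtypes, taken as the lower of both libraries. The list members with the most UMIs were also named, and other list members were picked after their values were seen. Coordinates are from GENCODE vM21. Scripts used Python 3.11.15, numpy 2.4.6, scipy 1.17.1 and scanpy 1.11.5 and were tested on simulated data. Doublets were kept as in the rule. Scrublet's automatic threshold called 0 barcodes in each library, so the 6% with the highest scores were removed as an alternative, chosen after that was seen. Other alternatives changed the filters, markers, depth, weighting and UMI limits. The values of 1 interferon response gene are not reported here, though it is counted in its list.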

Additional observations from a re-analysis of the deposited data

Results flagged for a closer look

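Barcodes with at least 3 markers and an Otol1 UMI, which the rule keeps out, had an Isl1 level above that of every subtype of members in the AAV-Isl1 plus noise library but not in the noise-only library: 629 CPM (550 to 716) in 120 AAV-Isl1 plus noise barcodes and 111 CPM (57.3 to 194) in 34 noise-only barcodes, 5.67-fold (3.18 to 11.1). The noise-only level rests on 12 UMIs, 10 of them in 5 cells, and 5 cells held 100 of the 228 AAV-Isl1 plus noise UMIs. Without those cells the ratio was 15.6. They stood out because this signal lies in cells outside the comparisons and above the noise-only level. Isl1 was seen in 44.2% and 20.6% of them, at medians of 2641.5 and 2483.5 UMIs. They made up 0.529% and 0.170% of the filtered barcodes, 3.11-fold (2.11 to 4.69), while members made up 0.635 times as large a share with AAV-Isl1 plus noise as with noise only.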

How the results depend on the processing

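No paired analysis was possible because each group is a single library of pooled ears. Of 1087 values recomputed under 17 alternatives, 922 stayed within the counting interval or within 1.5 times the count, 157 moved further and 8 changed direction. The ratio of member shares was 0.545 with at least 4 markers, 0.873 with at least 2, 0.55 without Fbxo2 as a marker, 0.535 without members with 3 genes of another cell type and 0.53 after thinning. The Isl1 ratio was 1.44 with at least 4 markers, 1.47 without Fbxo2, 2.33 after thinning and 2.33 as a mean over cells. With at least 2 markers the ratio of Ceacam16-only shares was 0.748. Genes at least 1.5-fold higher and lower numbered 191 and 184 after thinning, 719 and 433 as means over cells, 1045 and 641 from 20 UMIs, 80 and 53 from 200 UMIs, and 111 and 41 at 2-fold. Higher genes numbered 719 with at least 2 markers and 304 without members with 3 genes of another cell type. The interferon median lay between 0.23 and 0.64 and the MHC class I median between 0.40 and 0.83 over all alternatives. Rsad2 was 0.861-fold with at least 4 markers and 0.852-fold without Fbxo2. C1qa was 0.78-fold and Lcn2 0.766-fold without members with 3 genes of another cell type, and Lcn2 0.697-fold without those with neutrophil or macrophage UMIs. After thinning Slc26a7 was 1.16-fold and Vmo1 1.08-fold. With at least 2 markers the median of immediate early genes was -0.02. The cause of the moves was not tested. Giving both libraries the same subtype makeup and leaving out members with neutrophil or macrophage UMIs were added after seeing the data. Doublets by the automatic threshold could not be removed, since it called 0.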

Other observations

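Of 15 measured growth factor genes, 11 had a ratio above 1 in members, 4 were at least 1.5-fold higher and 0 at least 1.5-fold lower, with a median log2 ratio of 0.18 in members and of -0.07 in the other barcodes. The median was 0.72 over 9 genes in cells with none of the 3 subtype genes, 0.19 over 10 in Ceacam16-only cells and -0.11 over 6 in Slc26a4-only cells. These genes were measured by their UMIs within each subtype, so the medians cover different genes. Igfbp6, an inhibitor of insulin-like growth factor 2, had 242 CPM in AAV-Isl1 plus noise members and 110 CPM in noise-only members, 2.20-fold (1.88 to 2.58), and 460 and 115 CPM in cells with none of the 3 subtype genes. RNA of other cell types was also high in that subtype. Fibrocyte or mesenchyme genes summed to 2988 and 1486 CPM there and Schwann or satellite glia genes to 4815 and 2462 CPM. The part of such RNA in the values of that subtype was not tested. Ccn1, a matricellular protein, had 382 and 219 CPM, 1.75-fold (1.56 to 1.97). Bdnf, the neurotrophin that supports vestibular and spiral ganglion neurons, had 28.6 and 15.0 CPM from 45 and 38 UMIs, 1.91-fold (1.21 to 3.02), and Fgf2 was 1.54-fold with an interval from 0.996 to 2.38. Of 15 measured Wnt pathway genes 12 lay above 1 and 1 was past 1.5-fold, Dkk3 with 108 and 61.2 CPM, 1.77-fold (1.41 to 2.21).

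Immediate early genes, which cells switch on within minutes of a stimulus or of dissociation, had a ratio above 1 for 16 of 17 measured genes in members, with a median log2 ratio of 0.15 there and of -0.45 in the other barcodes. Fos had 5309 and 4580 CPM, 1.16-fold (1.13 to 1.19), and Nr4a1 243 and 145 CPM, 1.68-fold (1.45 to 1.94). Complement and acute phase genes divided: Clu, the chaperone clusterin, had 1532 CPM in AAV-Isl1 plus noise members and 2306 CPM in noise-only members, 0.664-fold (0.633 to 0.697), while C1qa, C1qb and C1qc of macrophages were 1.92, 2.46 and 2.56-fold and Lcn2, an iron-binding protein of neutrophils and injured epithelia, was 4.08-fold, with 62 of its 162 UMIs in 1 cell. Without members with 3 genes of another cell type C1qa was 0.78-fold and Lcn2 0.766-fold, and without those with neutrophil or macrophage UMIs Lcn2 was 0.697-fold. Otos, the fibrocyte gene of otospiralin, had 436 and 143 CPM, with 348 of the 685 AAV-Isl1 plus noise UMIs in 1 cell.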
